A study of Mus musculus with 6 samples.

Results

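Integrins, laminins and fibronectin are the receptors and ligands by which a cell holds to its basement membrane, and 35 of the 36 genes listed for them could be read on these arrays, out of 30702 genes measured. The genes were listed by name as integrin chains, laminin chains and fibronectin, and each was read from the array feature whose annotation gives that gene symbol alone. Itga1 has no such feature, because the feature that names it also names Pelo. The cells came from mouse embryonic stem cells of the iRunx line, grown as embryoid bodies for 4 days. Cells with surface Flk1 and without PDGFRα were sorted, a fraction of mesoderm that holds precursors of endothelium and blood. The HOXB4 group carried a retrovirus that expresses tdTomato and the homeodomain protein HOXB4, and the control group was of the same line, day and sort without it. The labels do not say whether control cells received an empty vector or whether a Runx gene was induced in either group. There were 3 arrays in each group, described in the labels as independent experiments.

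An integrin is a pair of an alpha and a beta chain that spans the membrane; the alpha chain largely sets the ligand, and the beta chain links to actin through talin and kindlin. A laminin is a cross-shaped trimer of an alpha, a beta and a gamma chain, and laminins polymerise into the basement membrane that underlies epithelium and endothelium. Fibronectin is the matrix protein on which mesoderm migrates, and it is bound mainly through an Arg-Gly-Asp (RGD) motif by the integrin that Itga5 and Itgb1 encode.

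Kdr, the gene of the sorting marker Flk1, was between 13.68 and 14.33 on the log2 scale in all 6 arrays. The feature for Pdgfra is shared with Mir7025 and ran from 5.95 to 7.15, highest in HOXB4 2. The Hoxb4 feature is shared with Mir10a (4.40 to 4.96 in controls, 4.24 to 4.93 in HOXB4 cells), so it does not check the labels. Per array, the median over genes ran from 5.10 to 5.22 and the median over all features from 4.59 to 4.71. A gene below that feature median is called dim here, and a small difference of a dim gene is not read as expression. HOXB4 2 stood apart from HOXB4 1 and 3: of the 35 genes, 19 lay within the range of the 3 controls in HOXB4 2, against 11 in HOXB4 1 and 11 in HOXB4 3. Over all genes these shares were 55.0% in HOXB4 2, 41.0% in HOXB4 1 and 46.9% in HOXB4 3.

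In HOXB4 cells the laminin-binding integrin gene Itga3 lay 2.23-fold higher on average, while Itga9 and Itgb5 lay 1.77-fold and 1.95-fold lower. These 3 averages came from HOXB4 1 and 3, and HOXB4 2 stood among or next to the controls. Smaller differences without overlap between the groups were seen for Itga5 (1.25-fold) and Lama1 (1.32-fold), both higher. With limma and Benjamini-Hochberg adjustment over all genes, none of the 35 genes passed at 0.05, and 0 of all 30702 genes did (0%); the smallest adjusted p among the 35 was 0.605. At an unadjusted p of 0.05, 4 of the 35 were counted (11.4%, 3 higher and 1 lower), against 2513 of all genes (8.19%, with 2.23% higher and 5.95% lower). The 4 were Lama1, Itga3, Itga9 and Itga5. Of the 2513, 27.3% were higher, a share that was 51.9% when the arrays were scaled by cyclic loess. The values of HOXB4 cells did not overlap those of controls for 5 of the 35 (14.3%), against 13.5% of all genes, so that share is near the background. They were 3 genes with every HOXB4 value above (Itga5, Itgb4 and Lama1; 3.24% of all genes) and 2 with every one below (Itga10 and Itga11; 10.2% of all genes).

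**Figure D1:**
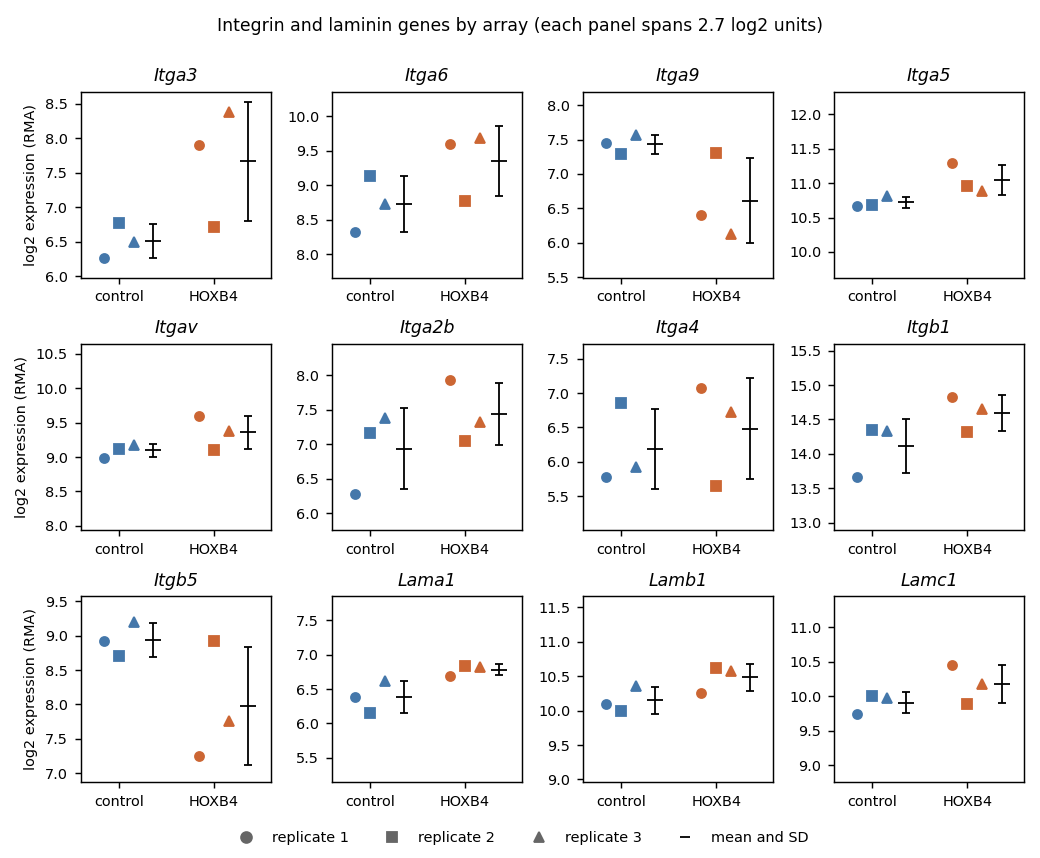
Log2 expression of 12 integrin and laminin genes by array, with the 3 control arrays in blue and the 3 HOXB4 arrays in orange, symbols for replicate numbers, and a bar for the mean and SD of each group. HOXB4 1 and 3 stand apart from the controls for Itga3, Itga9 and Itgb5 while HOXB4 2 does not, and all HOXB4 values of Itga5 and Lama1 lie above the controls.

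Among the laminin-binding alpha chains, Itga3, whose product pairs with that of Itgb1 and binds laminins of epithelial basement membranes, was at 6.27, 6.77 and 6.50 in the controls and at 7.91, 6.71 and 8.39 in the HOXB4 arrays (here and below in the order of replicates 1, 2 and 3). Above every control lay HOXB4 1 and 3, with HOXB4 2 inside their range. The means were 6.51 ± 0.25 and 7.67 ± 0.86 (SD, n = 3 each), a difference of 1.16 (SE 0.41) with limma's adjusted p = 0.605. The difference was 1.64 without HOXB4 2 (limma's adjusted p = 0.071) and 0.80 without HOXB4 3 (limma's adjusted p = 0.889). Itga6, a laminin receptor chain of stem cells, epithelia and platelets, was at 8.33, 9.13 and 8.72 in controls and at 9.60, 8.77 and 9.69 in HOXB4 cells. Again HOXB4 1 and 3 were above every control and HOXB4 2 was not, and the difference was 0.63 (SE 0.30; limma's adjusted p = 0.619). Itga7, the laminin receptor chain of muscle, was dim in all 6 arrays (4.08 to 4.26).

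The RGD-binding alpha chains all had differences above 0. Itga5, the fibronectin receptor chain, was at 10.66, 10.68 and 10.81 in controls and at 11.29, 10.96 and 10.89 in HOXB4 cells. Every HOXB4 value lay above every control, by a small margin, and the difference was 0.33 (SE 0.13; limma's adjusted p = 0.605), or 0.20 without HOXB4 1. Itgav, which pairs with several beta chains to bind vitronectin and latent TGF-beta, was at 8.99, 9.12 and 9.18 in controls and at 9.59, 9.11 and 9.38 in HOXB4 cells. Its difference was 0.26 (SE 0.14), with HOXB4 2 inside the control range, and it was 0.15 without HOXB4 1. Itga2b, the alpha chain of the platelet fibrinogen receptor and a marker of early blood progenitors, was at 6.27, 7.16 and 7.38 in controls and at 7.93, 7.05 and 7.32 in HOXB4 cells. Only HOXB4 1 exceeded the controls, and the difference of 0.50 (SE 0.34) was 0.17 without control 1. It was 0.25 without HOXB4 1. Itga8, known from kidney and smooth muscle, was highest in HOXB4 2 (7.69), next in control 3 (7.12) and lowest in HOXB4 1 (6.10), and its difference of 0.04 (SE 0.46) was -0.48 without HOXB4 2.

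Itga9, a chain that binds tenascin and the fibronectin extra domain, was at 7.45, 7.29 and 7.56 in controls and at 6.40, 7.31 and 6.13 in HOXB4 cells. HOXB4 1 and 3 were well below the lowest control, and HOXB4 2 was level with control 2. The means were 7.43 ± 0.14 and 6.61 ± 0.62 (SD, n = 3 each), a difference of -0.82 (SE 0.29, limma's adjusted p = 0.605). It was -1.17 without HOXB4 2 (limma's adjusted p = 0.061) and -0.58 without HOXB4 3 (limma's adjusted p = 0.889). Its structural relative Itga4, which binds VCAM1 and is carried by blood progenitors, did not follow it. It was at 5.79, 6.85 and 5.92 in controls and at 7.07, 5.66 and 6.72 in HOXB4 cells, so that control 2 stood with HOXB4 1 and 3. Its difference was 0.29 (SE 0.42), and 0.00 without HOXB4 1.

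Of the collagen-binding alpha chains, Itga2 was at 4.91, 5.43 and 4.49 in controls and at 5.83, 4.34 and 4.55 in HOXB4 cells, with no shared direction. Itga10 and Itga11, chains of cartilage and fibroblasts, were dim in all 6 arrays. Itga10 was at 4.34, 4.22 and 4.23 in controls and at 4.10, 4.13 and 4.20 in HOXB4 cells, and Itga11 at 4.14, 4.11 and 4.09 and at 3.92, 4.04 and 4.02. Both lay lower without overlap by -0.12 (SE 0.09 and 0.08), a size that their level does not let be read as expression. The leukocyte chains Itgae, Itgal, Itgam and Itgax were dim in every array, with values from 3.73 to 4.23 and differences from -0.11 to 0.01. Itgal was at 4.19, 4.17 and 4.11 in controls and at 4.06, 4.08 and 4.19 in HOXB4 cells. The 8 leukocyte markers looked up beside them averaged 4.36 to 4.45 in controls and 4.39 to 4.51 in HOXB4 cells, and Ptprc, the pan-leukocyte phosphatase, was at 3.80 to 3.98.

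Among the 8 beta chains, Itgb1, the common partner of most matrix-binding alpha chains, was at 13.66, 14.35 and 14.34 in controls and at 14.83, 14.31 and 14.65 in HOXB4 cells. Control 1 lay lowest, and HOXB4 1 and 3 lay above every control. The difference of 0.48 (SE 0.22; limma's adjusted p = 0.615) was 0.25 without control 1. Itgb5, which pairs only with the Itgav product as a vitronectin receptor, went the other way, at 8.93, 8.70 and 9.19 in controls and at 7.24, 8.92 and 7.76 in HOXB4 cells. Values in HOXB4 1 and 3 were lower than in every control, and HOXB4 2 was at the level of control 1. The means were 8.94 ± 0.25 and 7.98 ± 0.86 (SD, n = 3 each), a difference of -0.96 (SE 0.40; limma's adjusted p = 0.605). It was -1.44 without HOXB4 2 (limma's adjusted p = 0.089) and -0.60 without HOXB4 1.

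Itgb3, the beta chain of the platelet and vitronectin receptors, was highest in control 3 (6.69) and HOXB4 2 (6.27) and between 5.04 and 5.43 in the other arrays. Its difference of -0.11 (SE 0.47) ran from -0.45 without control 2 to 0.38 without control 3. Itgb8, a chain that activates latent TGF-beta, ran from 4.69 to 4.85 in controls and was at 4.19, 4.96 and 4.38 in the HOXB4 arrays. It reached the feature median in only 3 of the 6 arrays, and its difference was -0.24 (SE 0.20). Itgb4, the hemidesmosome chain, was at 4.78, 4.78 and 4.72 in controls and at 4.80, 4.81 and 4.83 in HOXB4 cells, without overlap but by 0.05 (SE 0.08). The leukocyte chains Itgb2 and Itgb7 ran from 4.89 to 5.33 and from 5.26 to 5.39, with differences of -0.12 and -0.03. Itgb6, an epithelial chain, was dim in all 6 arrays (3.68 to 3.89). Over the 16 alpha chains the median difference was -0.004 and over the 8 beta chains -0.11, beside -0.04 over all genes. With 1 array left out, that of the beta chains ran from -0.17 (without control 2) to -0.025 (without HOXB4 1). In all, 8 of the 16 alpha chains and 2 of the 8 beta chains had differences above 0.

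**Figure D2:**
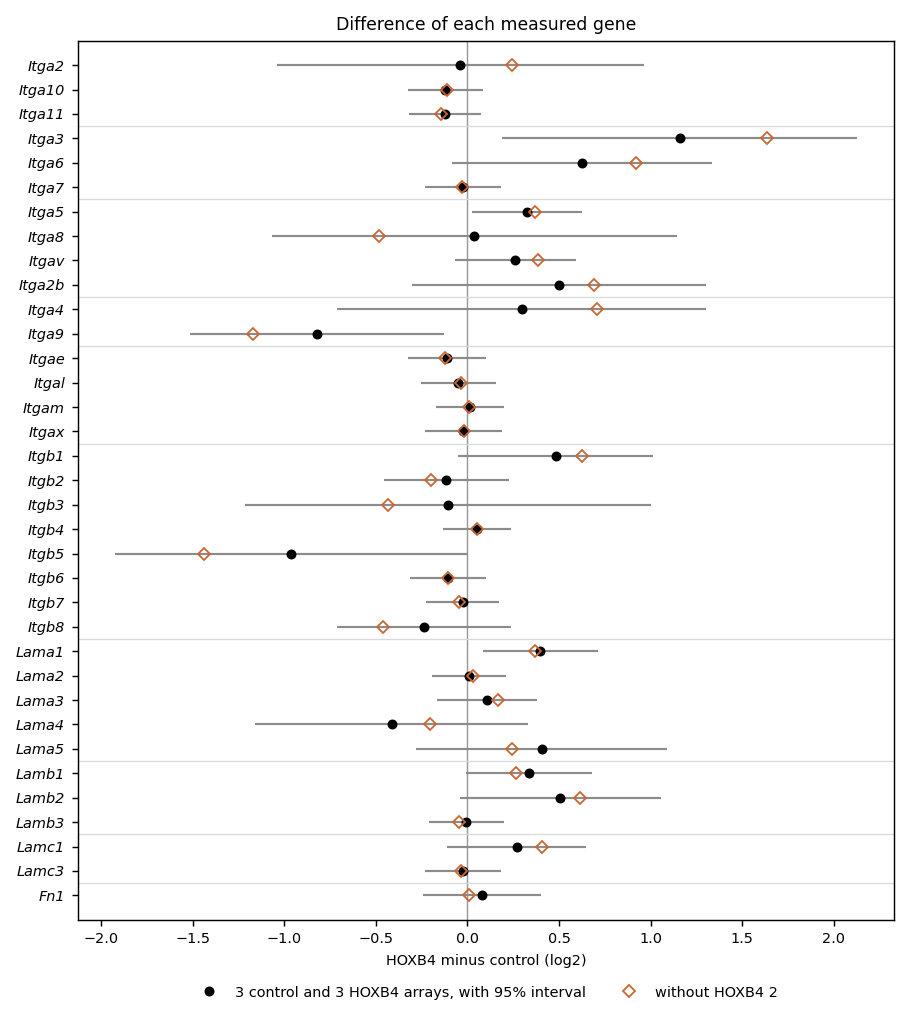
Difference of HOXB4 minus control in log2 units for each of the 35 genes, in order of role, with the 95% interval of the moderated fit as a grey line; diamonds show the difference without HOXB4 2. The points farthest from 0 are Itga3 at 1.16, Itgb5 at -0.96 and Itga9 at -0.82, and each is farther from 0 without HOXB4 2.

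To show the DNA just before the starts of the 4 integrin genes with the smallest unadjusted p, the 250 bases upstream are printed for Itga3, Itga5, Itga9 and Itgb5, as RefSeq places the starts on GRCm38.p6. Itga3 has 2 listed starts, of which the outer is shown. Capitals mark matches on either strand to the motifs TGATNNAT (a form bound by PBX with HOX proteins), TAATTA (a homeodomain core), AGATAA (bound by blood factors of the GATA class), CCGGAAGT (bound by ETS factors), GGGCGG (the GC box) and CCAAT.
Itga3 (chr11:95076715-95076964, minus strand): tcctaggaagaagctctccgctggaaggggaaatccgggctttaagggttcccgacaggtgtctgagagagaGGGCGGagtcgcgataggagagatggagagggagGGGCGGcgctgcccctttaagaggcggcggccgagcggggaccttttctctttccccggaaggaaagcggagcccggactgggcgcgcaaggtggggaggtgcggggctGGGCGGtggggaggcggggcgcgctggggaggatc
Itga5 (chr15:103366792-103367041, minus strand): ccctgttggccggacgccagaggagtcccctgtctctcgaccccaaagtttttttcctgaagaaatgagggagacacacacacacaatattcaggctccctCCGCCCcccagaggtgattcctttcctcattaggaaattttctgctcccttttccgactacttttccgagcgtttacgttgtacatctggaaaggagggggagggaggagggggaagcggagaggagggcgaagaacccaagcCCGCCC
Itga9 (chr9:118711442-118711691, plus strand): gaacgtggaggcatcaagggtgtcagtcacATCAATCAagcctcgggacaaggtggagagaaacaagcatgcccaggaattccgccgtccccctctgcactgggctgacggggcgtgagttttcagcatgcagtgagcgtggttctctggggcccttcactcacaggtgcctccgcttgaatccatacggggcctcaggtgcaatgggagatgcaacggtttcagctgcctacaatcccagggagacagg
Itgb5 (chr16:33829415-33829664, plus strand): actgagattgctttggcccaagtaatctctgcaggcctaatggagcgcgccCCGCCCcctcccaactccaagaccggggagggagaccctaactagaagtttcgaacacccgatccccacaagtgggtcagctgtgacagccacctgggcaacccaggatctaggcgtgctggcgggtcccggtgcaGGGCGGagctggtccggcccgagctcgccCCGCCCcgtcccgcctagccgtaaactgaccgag
The windows of Itga3, Itga5 and Itgb5 carried GC boxes and no match to the HOX, GATA or ETS forms. Itga9 had 1 match to the PBX and HOX form, on the minus strand 220 to 213 bases before the start. Of the 26 windows listed for 23 of the 36 genes, 2 held that form (7.69%), against 7.68% of all 32851 windows, and 9 held a GC box (34.6%, against 32.7%). TAATTA was in 0 of the 26 and in 4.84% of all windows. CCGGAAGT was in 0 and 2.88%, AGATAA in 1 and 9.99%, and CCAAT in 4 and 33.9%. A match describes letters and is no measure of binding.

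Of the 10 laminin chain genes 7 had differences above 0, with a median of 0.19 beside -0.04 over all genes. Lama1, the alpha chain of the first laminin laid down in the embryo, was at 6.38, 6.15 and 6.61 in controls and at 6.69, 6.84 and 6.82 in HOXB4 cells. Every HOXB4 value lay above every control, HOXB4 2 included. The means were 6.38 ± 0.23 and 6.78 ± 0.08 (SD, n = 3 each), and the difference was 0.40 (SE 0.13; limma's adjusted p = 0.605), from 0.28 to 0.51 with 1 array left out. Lama5, the alpha chain of mature epithelial and vascular basement membranes, was at 7.08, 7.03 and 8.02 in controls and at 7.58, 8.11 and 7.66 in HOXB4 cells. Control 3 and HOXB4 2 were highest, and the difference of 0.40 (SE 0.29) was 0.23 without control 2. It was 0.73 without control 3. Lama4, the endothelial and mesenchymal alpha chain, lay lower, at 8.53, 8.85 and 7.92 in controls and at 8.56, 7.60 and 7.90 in HOXB4 cells. HOXB4 1 was among the controls, and the difference of -0.41 (SE 0.31) was -0.20 without HOXB4 2. Lama3, the alpha chain of skin laminin, ran from 4.39 to 4.76, and Lama2, that of muscle, was dim in every array (3.99 to 4.13).

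Lamb1, the widespread beta chain, was at 10.09, 9.99 and 10.36 in controls and at 10.26, 10.62 and 10.57 in HOXB4 cells. HOXB4 2 and 3 lay above every control and HOXB4 1 below control 3, with a difference of 0.34 (SE 0.14; limma's adjusted p = 0.605). Lamb2, the beta chain of kidney and synaptic laminins, was at 6.93, 7.32 and 7.75 in controls and at 8.15, 7.62 and 7.75 in HOXB4 cells. The difference of 0.51 (SE 0.23; limma's adjusted p = 0.611) was 0.31 without control 1. Lamc1, the gamma chain of most laminins, was at 9.74, 10.01 and 9.97 in controls and at 10.45, 9.89 and 10.18 in HOXB4 cells. HOXB4 2 lay among the controls, and the difference of 0.27 (SE 0.16) was 0.13 without HOXB4 1. Lamb3 and Lamc3 were dim in every array and differed by -0.01 and -0.02. The chains of the early embryonic laminin, Lama1, Lamb1 and Lamc1, thus each had an average above that of controls, while only Lama1 had no overlap.

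Fn1 lay near the bright end of the array, where values of single genes reached 19.89. It was at 17.73, 17.80 and 18.02 in controls and at 18.02, 18.07 and 17.70 in HOXB4 cells, a difference of 0.08 with a 95% interval from -0.24 to 0.40. HOXB4 3 was the lowest of the 6 arrays and HOXB4 2 the highest. How far values at this end still follow the amount of RNA was not tested, and the scale of the deposited values is not described further in the sources used here.

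**Figure D3:**
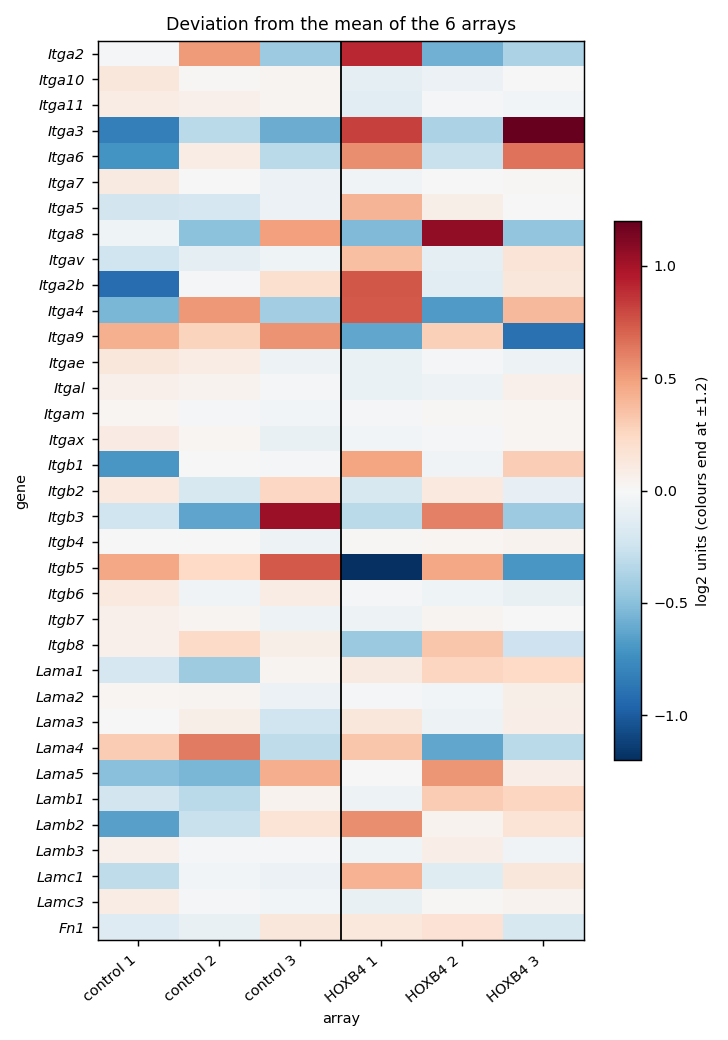
Deviation of each of the 35 genes from its mean over the 6 arrays, in log2 units, with genes as rows in order of role and arrays as columns; red is above the mean and blue below. HOXB4 1 and 3 share the red of Itga3 and Itga6 and the blue of Itga9 and Itgb5, and the dim genes, such as Itgam and Lamb3, are nearly white throughout.

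Marker genes of the cell types that the sort could hold varied between arrays along with several of these genes. In bulk RNA, fewer cells of a type and less RNA per cell cannot be told apart. The 9 measured of 10 endothelial markers averaged 8.23, 9.60 and 8.07 in the controls and 10.61, 7.85 and 9.31 in the HOXB4 arrays, and 8 of the 9 were above the feature median in every array. Control 2 and HOXB4 1 and 3 were therefore high, the arrays in which Itga4 and Itga6 were also highest. The 7 smooth muscle and stromal markers averaged 7.29 to 7.93 in controls and 6.47, 7.87 and 6.58 in the HOXB4 arrays. On average HOXB4 1 and 3 were lowest, as for Itga9 and Itgb5. Rgs5, a pericyte gene, was at 6.99 and 6.70 there against 10.26 to 11.79 in the other 4 arrays. Pdgfrb and Col1a1 were also lowest in HOXB4 1 and 3. Acta2, Tagln, Myh11 and Col3a1 did not have those arrays as their lowest, and their differences ran from -0.37 to 0.13. The 6 epithelial markers averaged 10.05, 8.86 and 10.38 in controls and 8.74, 10.87 and 9.41 in HOXB4 cells. That average was highest in control 3 and HOXB4 2, as for Itga8, Itgb3 and Lama5, but the markers did not move together. Of them, only Krt19 was highest in those arrays. Epcam, Cdh1 and Cldn6 were highest in HOXB4 2 and 3. Krt8 and Krt18 were highest in controls 1 and 3 and lowest in HOXB4 1 and 3. Differences were above 0 for 3 and below for 3, from -1.66 for Krt18 to 1.15 for Cdh1. The 6 pluripotency markers averaged 7.08 to 8.30 in controls and 7.41 to 9.13 in HOXB4 cells. Of the 11 endoderm markers 5 were dim in every array, Afp and Ttr among them, and the list averaged 5.22 to 5.40 in controls and 5.19 to 5.51 in HOXB4 cells. The 6 cardiac markers averaged 7.69 to 8.16 in controls and 6.67, 7.57 and 6.72 in the HOXB4 arrays. HOXB4 1 and 3 were again lowest on average. Differences were -3.22 for Hand1 and -1.89 for Tbx20 and between -0.36 and 0.26 for the other 4. Hand1 was at 8.98 and 8.61 in HOXB4 1 and 3 against 12.82 to 13.79 elsewhere. Tbx20 was at 8.91 and 9.10 there against 10.67 to 11.93. The other 4 did not have those arrays as their lowest. Without HOXB4 2, Hand1, Tbx20, Rgs5 and Pdgfrb passed at 0.05 (limma's adjusted p = 0.014, 0.044, 0.046 and 0.023). The 4 measured of 5 primitive erythroid markers averaged 7.30 to 8.68 in controls and 6.90 to 8.68 in HOXB4 cells. For Itga2b and Itgb3, the 5 measured of 8 megakaryocyte markers averaged 4.52 to 5.28 in controls and 4.44 to 5.34 in HOXB4 cells. Pf4, a platelet chemokine, was at 8.45, 9.21 and 8.52 in control 2 and HOXB4 1 and 3 and at 4.61 to 5.05 elsewhere. Neither Itga2b nor Itgb3 had that order. Vwf was also highest in those arrays (4.86 to 5.17). Gp5, Gp9 and Ppbp were not, and they differed by -0.10, -0.25 and -0.09. The part of these cell types in the differences above was not tested.

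**Figure D4:**
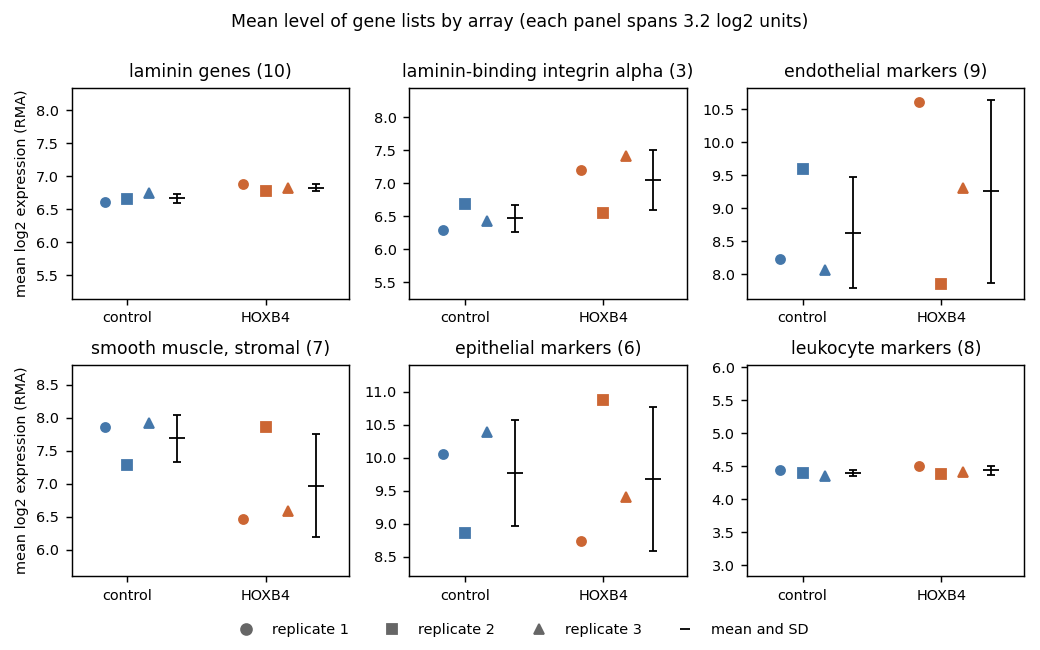
Mean log2 expression by array of the laminin genes, the laminin-binding integrin alpha chains and 4 marker lists, with the number of genes in brackets, symbols for replicates and a bar for the mean and SD. Endothelial markers are highest in HOXB4 1 (10.61) and control 2 (9.60), smooth muscle and stromal markers lowest in HOXB4 1 (6.47) and 3 (6.58), and leukocyte markers stay between 4.36 and 4.51.

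With all 6 arrays, none of the genes that work beside these receptors passed the test either: 0 of 14 measured basement membrane genes and laminin receptors outside the integrins, 0 of 30 genes of the adhesion complex and 0 of 20 other integrin ligands, in either direction. At an unadjusted p of 0.05, 1 basement membrane gene was higher and 1 lower, where 2.23% of all genes were higher and 5.95% lower. The median difference of this list was 0.20, and ran from 0.076 without HOXB4 2 to 0.31 without HOXB4 3. Frem1, a matrix protein of the embryonic epidermal basement membrane, was at 5.16, 4.93 and 5.03 in controls and at 4.54, 4.83 and 4.64 in HOXB4 cells, without overlap. Its difference was -0.37 (SE 0.11). Of the 14 genes, 1 had no overlap (7.14%), against 13.5% of all genes. Npnt, a ligand of the Itga8 receptor, differed by 0.38 (SE 0.16), and by 0.23 without HOXB4 1. Col4a1, a chain of the collagen network that laminin overlies, was at 6.83, 8.73 and 7.51 in controls and at 10.22, 7.33 and 9.66 in HOXB4 cells. Its 3 highest arrays were those of the endothelial markers, control 2 and HOXB4 1 and 3. Its difference of 1.38 (SE 0.81) was 2.25 without HOXB4 2 and 0.80 without HOXB4 1. Col18a1 differed by 0.73 (SE 0.41), or 0.32 without HOXB4 1 and 1.18 without HOXB4 2. Hspg2, the heparan sulphate proteoglycan perlecan, differed by 0.40 (SE 0.26), and by 0.20 without control 1 or 0.67 without control 3. Nid1, which links laminin to collagen, and Dag1, a laminin receptor that is no integrin, differed by 0.07 (SE 0.29) and 0.02 (SE 0.09), and the sign of each turned with 1 array left out.

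In the adhesion complex, which joins the beta chains to actin, 3 of 30 genes were higher and 2 lower at an unadjusted p of 0.05 (all genes: 2.23% higher, 5.95% lower). The median difference was 0.10, and ran from 0.021 without HOXB4 1 to 0.18 without HOXB4 2. Fermt1, a kindlin that activates integrins, ran from 5.61 to 6.02 in controls and was at 6.62, 6.26 and 6.94 in HOXB4 cells, without overlap, and differed by 0.73 (SE 0.20). Vcl, the actin-binding protein vinculin, was at 13.13, 13.46 and 14.00 in controls and at 14.37, 14.06 and 14.01 in HOXB4 cells, with HOXB4 3 just above control 3, and differed by 0.62 (SE 0.23). Zyx, a protein of mature adhesions, differed by 0.56 (SE 0.22), also without overlap, and by 0.36 without control 1. Fermt1, Vcl and Zyx were the 3 of 30 without overlap (10%, against 13.5% of all genes). Parvb, which binds integrin-linked kinase, was at 9.41, 9.03 and 9.33 in controls and at 8.45, 9.10 and 7.92 in HOXB4 cells, lower in HOXB4 1 and 3 and within the controls in HOXB4 2. Its difference was -0.77 (SE 0.29), and -0.48 without HOXB4 3. Tln1, the main talin, and Ilk, integrin-linked kinase, differed by 0.33 (SE 0.27) and 0.19 (SE 0.11), and by 0.11 and 0.12 without HOXB4 1. The other talin, Tln2, went the other way and was with Parvb counted as lower. It was at 8.63, 8.39 and 8.72 in controls and at 7.07, 8.61 and 7.17 in HOXB4 cells. Its difference was -0.96 (SE 0.40), and -1.46 without HOXB4 2, where it passed at 0.05 (limma's adjusted p = 0.031). Among the other ligands 2 of 20 were higher and 1 lower at that level, again beside 2.23% and 5.95% of all genes. Their median difference of 0.0022 turned sign with 1 array left out (-0.031 without control 3, 0.048 without control 1). Icam1, a ligand of leukocyte integrins, differed by 0.63 (SE 0.22), without overlap. In this list 2 of 20 had no overlap, 1 higher and 1 lower (10%, against 13.5% of all genes). Ccn1, a matrix protein bound by integrins of the Itgav product, differed by 1.25 (SE 0.46), from 0.92 without HOXB4 1 to 1.68 without HOXB4 2. The groups overlapped, with HOXB4 2 at 13.48 and control 3 at 13.86. Fbln1, a basement membrane fibulin, differed by -1.34 (SE 0.53), with HOXB4 1 and 3 at 6.49 and 6.70 and HOXB4 2 at 8.36 among the controls (7.92 to 9.11). Thbs1, a thrombospondin, differed by 0.88 (SE 0.55), from 0.47 without control 2 to 1.58 without control 3.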

How the data were processed

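Total RNA of 6 sorted samples was read on 6 arrays, 3 per group. Per the labels' protocols, labelling of 100 ng used the WT PLUS kit of Affymetrix. The authors deposited log2 summaries made, per the submitters' processing notes, with Affymetrix Expression Console and RMA. RMA subtracts background, equalises the distributions of arrays and summarises probes, so a shift of most genes one way would be partly removed. The sources used here do not give versions, settings or a genome build. A feature sums over transcripts of a gene, so isoforms are not told apart, and levels of different genes are not comparable.

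Of 65956 features that were not controls, 31258 named 1 gene once symbols of the platform annotation were updated through a RefSeq table of GRCm38.p6, 1492 named several and 33206 had no listed gene. The brightest stood for each of 30702 genes; each of the 35 genes reported had 1 feature. The annotation of the Lamb3 feature lists a further gene identifier. HOXB4 minus control was fitted over all genes by limma's lmFit and eBayes (limma 3.58.1, R 4.3.3), two-sided with Benjamini-Hochberg adjustment, without a replicate block. The same fit was also run on simulated data with independent noise for each gene and array. That run does not cover arrays that deviate together over many genes, as those here did. SE is the moderated standard error, and intervals are 95%. The genes, lists and tests were chosen with earlier results of these data known. Values in every array are given for the 8 genes with the smallest p, those without overlap and the brightest of each role; those of Itgav, Itga2b, Itga4, Lama5, Itga8, Itgb3 and Itgb8 were added after they were seen. Wider lists are shown by up to 4 genes of smallest p plus Dag1, Nid1, Hspg2, Col4a1, Tln1, Vcl and Ilk. Tln2 was added after its values were seen. Alternatives were the replicate block, an intensity trend, array weights, a filter on dim features, 2 scalings, other rules for features and each array left out. The number of arrays limits the precision. Tables and plots used pandas 2.3.3, numpy 2.4.6, matplotlib 3.10.9 and Python 3.11.15.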

Additional observations from a re-analysis of the deposited data

How the results depend on the processing

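Under the 14 alternatives, 0 of the 35 genes were called, and the smallest adjusted p was 0.061 (Itga9 without HOXB4 2). Over all genes limma called 0, except 46 without HOXB4 2, so the counts with 1 array left out ran from 0 to 46. Genes of the set without overlap numbered 3 when dim features were filtered out, a condition that a single group can fulfil. They numbered 8 with cyclic loess and 5 to 17 with 1 array left out. Without HOXB4 2 it was 17, without control 2 or control 3 it was 11, and without HOXB4 1 it was 8. Groups separate more readily with fewer arrays. The share over all genes was not counted in these settings, so the counts are not read as a result about the set. The median difference of the 35 genes was 0.18 with the filter, 0.031 with arrays centred on their medians and 0.048 with cyclic loess, and ran from 0.0019 to 0.045 with 1 array left out. That of the alpha chains was 0.29 with the filter and 0.034 with cyclic loess (-0.032 to 0.072 with 1 array left out), and that of the laminin genes 0.34 and 0.25 (0.10 to 0.20); that of the beta chains ran from -0.17 to -0.025 with 1 array left out. The filter drops the dim genes, whose differences lie near 0. Signs turned for 9 genes: with cyclic loess Itga7 was at 0.013, Itgax at 0.016, Itgb7 at 0.0021, Lamb3 at 0.031 and Lamc3 at 0.012; with arrays centred Lamb3 was at 0.015; with array weights Itga8 was at -0.071. With 1 array left out, the ranges were -0.50 to 0.24 for Itga2, -0.066 to 0.024 for Itga7, -0.48 to 0.31 for Itga8, -0.072 to 0.022 for Itgax, -0.45 to 0.38 for Itgb3, -0.023 to 0.029 for Lama2, -0.047 to 0.022 for Lamb3 and -0.051 to 0.013 for Lamc3. The cause of these changes was not tested. With the replicate number as a block, 0 genes were called and 1294 had an unadjusted p below 0.05, against 2513 without it. Arrays of the same number deviated from their group means in opposite directions (r over genes = -0.40, -0.59 and -0.35), so the numbers are not read as pairs. The 11 genes that were dim in every array could show no difference of use here.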

Other observations

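The feature that names both Itga1 and Pelo, which the comparison did not use, was at 5.91, 6.93 and 6.07 in the controls and at 7.93, 6.17 and 7.38 in the HOXB4 arrays, in the order of their replicate numbers. HOXB4 1 and 3 lay above every control and HOXB4 2 within their range, and control 2 stood above the other controls. Itga1 encodes a collagen receptor chain and Pelo a ribosome rescue factor, and the feature does not say which of them its signal comes from.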
